A study of Mus musculus with 6 samples.

Results

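Glycolysis and lactate handling are described here through 33 gene symbols: the enzymes that turn glucose into lactate, the carriers that move glucose and lactate across the cell membrane, the kinases that hold back pyruvate dehydrogenase, and the enzymes that set the level of fructose 2,6-bisphosphate. The symbols were matched exactly to the gene names of the deposited mRNA table, which gave 34 gene identifiers of the 21954 in the table. Aldoa has a second identifier (ENSMUSG00000114515) just upstream of the main one. Of the 34 identifiers, 32 averaged at least 0.5 FPKM and were tested, while Aldoc and the second Aldoa identifier lay below that level. FPKM is the number of sequenced fragments scaled to transcript length and to the depth of the library, so levels can be set against each other per length.

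The irradiated group was 3 wild-type C57BL mice aged 5 weeks whose thymus was taken 24 h after 6 Gy of X-rays. The control group was 3 wild-type C57BL mice of the same age that received no radiation and were killed at the same time. Whole thymus was frozen and its polyadenylated RNA sequenced, per the labels, so every value is an average over all cell types of the organ. The labels do not tie each library to an animal in words, and p-values measure the spread between these libraries.

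Glycolysis splits glucose into pyruvate and yields ATP without oxygen. Hexokinase traps glucose in the cell, phosphofructokinase sets the pace, and pyruvate either enters mitochondria through pyruvate dehydrogenase or is reduced to lactate, which leaves the cell together with a proton through monocarboxylate transporters. Most steps are served by several related genes (paralogues) that are used by different cell types. Developing thymocytes raise glucose uptake and glycolysis while they divide, and fall back to lower activity when they rest.

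The libraries held an estimated 24.4 to 25.6 M fragments in irradiated thymus and 21.9 to 23.2 M in control thymus. Across genes, log2 values of the 3 irradiated libraries correlated with each other less well (Pearson r of 0.824 to 0.931) than those of the 3 control libraries (0.979 to 0.985). The cell types behind the RNA differed. The 10 cortical thymocyte markers, Rag1 and Cd8a among them, summed to 78.0 to 120 FPKM in irradiated thymus and 1833 to 2133 FPKM in control thymus, with 9 of 10 called lower. All 10 markers of dividing cells were lower, and all 10 macrophage and all 8 fibroblast markers were higher. Macrophage markers summed to 888 to 1214 FPKM in irradiated thymus and 125 to 164 FPKM in control thymus, and fibroblast markers to 704 to 771 FPKM in irradiated thymus and 72.5 to 96.6 FPKM in control thymus. No marker of these 4 lists was at 0 throughout a group. In bulk tissue, fewer cells of a type and less RNA per cell cannot be told apart. Irradiated library 2 stood apart from the other irradiated libraries in its airway and skeletal muscle markers. Its airway markers summed to 3329 FPKM, against 56.2 and 50.7 FPKM in irradiated libraries 1 and 3 and 3.94 to 4.94 FPKM in controls. Its skeletal muscle markers summed to 215 FPKM, against 6.39 and 45.5 FPKM in irradiated libraries 1 and 3 and 6.28 to 7.01 FPKM in controls. Counts of called genes are therefore also given without library 2. Irradiated library 1 differed in another way. On the first principal component, the axis of largest variance (83.7%), it lay at -54.4, nearest the controls (95.8 to 102). Irradiated libraries 2 and 3 lay at -134 and -108. Counts by step and by related list are given with all libraries and without library 2, but not without library 1.

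More glycolysis genes were called higher than lower after irradiation, as was also the case among all genes tested. Of the 32 tested genes, 16 were called higher in irradiated thymus, 3 were called lower and 13 were not called (limma on log2(FPKM + 0.1), Benjamini-Hochberg adjusted p under 0.05 over 14001 genes). Among all 14001 genes, 42.4% were called higher and 20.9% lower, so the share of higher calls among the 32 was not far from that of all genes. The median log2 fold change was 0.87 over the 32 genes and 0.40 over all genes tested. The groups did not overlap for 21 of the 32 genes, 17 with every irradiated library above the controls and 4 with every one below. Among all genes tested 70.8% did not overlap, 46.1% above and 24.7% below. Without control library 1, 10 of the 32 were called higher and 3 lower, beside 4904 higher and 2276 lower of all 14001 genes. Leaving out irradiated library 1 gave 22 of the 32 called higher and 3 lower, beside 6771 higher and 3461 lower of all 14001 genes. The median log2 fold change was then 1.23 for the 32 and 0.45 for all genes. Without irradiated library 2, 13 of the 32 were called higher and 4 lower, beside 5313 higher and 2475 lower of all 14001 genes. The median log2 fold change was in that case 0.55 for the 32 and 0.36 for all genes.

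The count of higher genes depended on how libraries were scaled. The median log2 fold change of all genes was 0.40 in the values as deposited, -0.06 after median-ratio scaling and -0.07 after quantile normalization. The split of higher and lower calls among the 32 genes was then 11 and 5 under median-ratio scaling and 10 and 4 under quantile normalization, against 16 and 3 in the values as deposited. Of all genes, 31.7% were then called higher and 35.1% lower under median-ratio scaling, and 25% higher and 31.4% lower under quantile normalization. Hk2, Hk3, Gpi1, Aldoa, Slc2a1, Pdk2 and Pdk4 were called higher, and Slc16a1, Slc16a5 and Pdk1 lower, in all 15 limma fits, which changed the scaling, filter, pseudocount and block or left out 1 library. Under quantile normalization Eno2 (log2 fold change 0.14, adjusted p = 0.722), Pfkl, Pfkm, Slc16a3, Pfkfb1, Pfkfb2 and Pfkfb4 were no longer called, while Eno1 was called higher and Pfkp lower. Under median-ratio scaling Pfkl, Pfkm, Pgam1, Pfkfb1 and Pfkfb2 were no longer called, while Pfkp and Ldhb were called lower. In the authors' deposited table, 16 of the 32 genes were higher and 3 lower at adjusted p under 0.05, beside 32.5% higher and 14% lower among all genes with a value there, and 14 of the higher and all 3 of the lower genes were the ones called here.

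**Figure D1:**
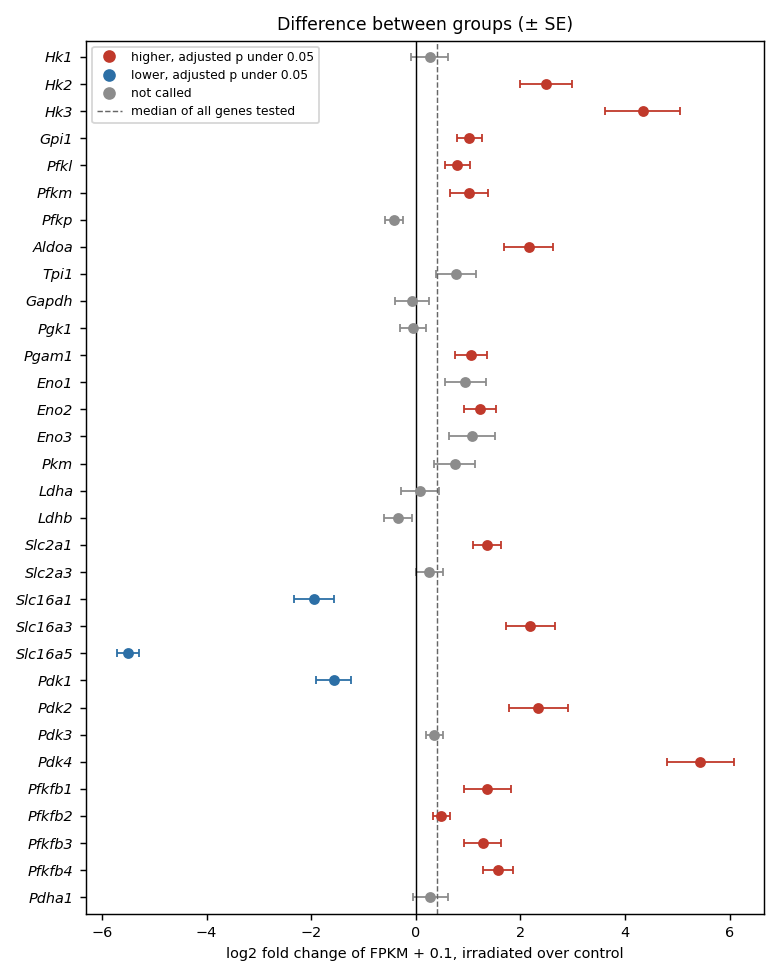
Log2 fold change of FPKM + 0.1 (irradiated over control, x axis) of the 32 tested genes, in the order of the pathway; points are limma estimates from 3 irradiated and 3 control libraries, bars are ± SE, and the dashed line marks the median of all genes tested, 0.40. Pdk4 (5.44) and Hk3 (4.34) lie farthest to the right and Slc16a5 (-5.51) farthest to the left.

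The mRNA table gives 1 value per gene, and this value includes transcripts that do not code for protein. The lncRNA table lists retained introns and processed transcripts of the same genes, and in 0 of 62368 library values did their sum exceed the gene value by more than 0.5%. Each gene value was therefore also split into its noncoding transcripts and the remainder. In the remainder 31 glycolysis genes could be tested, of which 14 were higher, 3 lower and 14 not called, beside 43.4% higher and 16.9% lower among the 13685 genes tested in that way. Without irradiated library 2, 11 of the 31 were higher and 3 lower in the remainder, beside 38.4% higher and 14.4% lower of all genes. Of the 16 higher genes 13 were also higher in the remainder, and the 3 lower genes were lower in both. Genes for which this split mattered are marked below.

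Among the 18 tested enzymes of the chain from glucose to lactate, 8 were higher, 0 were lower and 10 were not called, a share of higher calls close to the 42.4% of all genes. Without irradiated library 2, 7 were higher and 1 was lower, beside 37.9% higher and 17.7% lower of all genes. The first step showed the largest differences. Hk1, the hexokinase present in most cells, had 8.57, 20.5 and 22.3 FPKM in irradiated libraries 1, 2 and 3, against 11.6, 13.2 and 14.7 FPKM in control libraries 1, 2 and 3. The groups overlapped, and the log2 fold change of 0.26 ± 0.35 (SE) was not called (adjusted p = 0.535), although without irradiated library 1 it was (0.70, adjusted p = 0.00302). Hk2, the inducible hexokinase that binds to mitochondria, had 4.02, 15.7 and 14.1 FPKM in irradiated thymus and 1.78, 1.62 and 1.53 FPKM in controls. Every irradiated library lay above every control, library 1 the least so, and the log2 fold change was 2.49 ± 0.49 (adjusted p = 0.00404). Hk3, a hexokinase of myeloid cells, had 3.57, 11.3 and 25.8 FPKM in irradiated thymus and 0.205, 0.756 and 0.403 FPKM in controls. Its log2 fold change of 4.34 ± 0.72 (adjusted p = 0.00182) was the largest of the chain, and its order over the irradiated libraries (1, then 2, then 3) was that of the summed macrophage markers, which read 888, 1071 and 1214 FPKM. Of the single markers only Cd68, C1qb, C1qc and Gpnmb had this order. Adgre1, Csf1r, C1qa and Cd163 were highest in library 2, and Mertk and Mrc1 in library 1. Whether macrophages account for Hk3 was not tested.

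Gpi1, which isomerizes glucose 6-phosphate, had 60.9, 108 and 88.2 FPKM in irradiated thymus and 34.1, 43.9 and 46.1 FPKM in controls (log2 fold change 1.02 ± 0.24, adjusted p = 0.00813). Its noncoding transcripts made up 20.6% of the gene value in irradiated thymus and 52.1% in controls, and the remainder differed by 1.71 ± 0.27. The 3 phosphofructokinases, subunits of the enzyme that commits sugar to glycolysis, parted. Pfkl, the liver form, had 12.5, 24.7 and 16.5 FPKM in irradiated thymus and 9.43, 10.0 and 10.1 FPKM in controls (0.80 ± 0.24, adjusted p = 0.0245). Pfkm, the muscle form, had 8.21, 20.6 and 8.64 FPKM in irradiated thymus and 4.98, 5.09 and 6.85 FPKM in controls (1.01 ± 0.36, adjusted p = 0.0423). Its highest value was in library 2, where skeletal muscle, airway, fat and red blood cell markers were also highest. Neutrophil, fibroblast, endothelial, and neuronal and neuroendocrine markers were highest there too. Pfkl was called in 9 of the 15 fits and Pfkm in 7: without control library 1, 2 or 3 in turn neither was called, with adjusted p of 0.0649 to 0.0778 for Pfkl and 0.0641 to 0.123 for Pfkm. Pfkp, the platelet form, had 13.9, 18.2 and 20.1 FPKM in irradiated thymus and 21.1, 25.1 and 23.3 FPKM in controls. Its groups did not overlap, but the log2 fold change of -0.43 ± 0.17 was not called (adjusted p = 0.063), although without irradiated library 3 it was (-0.54, adjusted p = 0.0385). Noncoding transcripts held 65.7% of its gene value in irradiated thymus and 78.1% in controls, and in the remainder the direction turned (0.23 ± 0.32, adjusted p = 0.561).

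Aldoa, the aldolase of muscle and of most other tissues, had 99.8, 393 and 262 FPKM in irradiated thymus and 46.7, 51.7 and 47.9 FPKM in controls. The irradiated mean was 5.16-fold the control mean (log2 fold change 2.15 ± 0.46, adjusted p = 0.00555), and without library 2 the log2 fold change was 1.73 (adjusted p = 0.0105). The second Aldoa identifier, at 0.219 to 0.472 FPKM in irradiated thymus and 0.156 to 0.298 FPKM in controls, and the brain aldolase Aldoc, at 0.264 to 1.00 FPKM in irradiated thymus and 0.319 to 0.559 FPKM in controls, were near the floor and were not tested.

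The enzymes of the lower part of the chain were less uniform. Tpi1, which interconverts the triose phosphates, had 25.2, 75.1 and 57.5 FPKM in irradiated thymus and 29.2, 31.6 and 24.1 FPKM in controls, and was not called (0.76 ± 0.38, adjusted p = 0.118), although without irradiated library 1 it was (1.22, adjusted p = 0.000543). In its remainder the groups did not overlap and the difference was called (1.40 ± 0.47, adjusted p = 0.038). Gapdh, often used as a reference gene, was listed at 3.35, 8.09 and 7.40 FPKM in irradiated thymus and 6.03, 5.99 and 6.54 FPKM in controls (-0.08 ± 0.33, adjusted p = 0.853). Almost all of this value belonged to noncoding transcripts, 87.6% in irradiated thymus and 99.2% in controls, which left 0.174 to 1.89 FPKM in irradiated thymus and 0 to 0.147 FPKM in controls. Gapdh has many processed copies in the genome, and how the authors treated fragments that match several places is not given in the sources used here, so its level is uncertain. Pgk1, which makes the first ATP of the pathway, had 40.5, 69.5 and 79.8 FPKM in irradiated thymus and 63.0, 63.8 and 62.5 FPKM in controls (-0.05 ± 0.25, adjusted p = 0.861). Its group means, 63.2 FPKM in irradiated thymus and 63.1 FPKM in controls, were almost equal, while the irradiated libraries spread on both sides of the controls. Pgam1, a phosphoglycerate mutase, had 34.0, 61.4 and 79.6 FPKM in irradiated thymus and 23.3, 29.1 and 27.4 FPKM in controls (1.05 ± 0.30, adjusted p = 0.0193), a call lost without irradiated library 2 or control library 1 or 3 (adjusted p of 0.0546 to 0.0719). Pgk1, Pgam1, Tpi1, Eno1 and Ldha also have processed copies, and the same doubt holds for their values.

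Of the enolases, Eno1 had 69.3, 202 and 172 FPKM in irradiated thymus and 64.7, 73.0 and 70.6 FPKM in controls, and missed the threshold (0.95 ± 0.39, adjusted p = 0.0647). Library 1 was inside the control range, and without it Eno1 was called (1.42, adjusted p = 0.000109). Eno1b, a near-identical copy of Eno1 with which reads may be split, had 6.44, 25.0 and 21.6 FPKM in irradiated thymus and 5.67, 5.95 and 7.33 FPKM in controls, and was not called (1.26 ± 0.48, adjusted p = 0.0542). Eno2, the neuronal enolase, had 2.41, 4.30 and 4.65 FPKM in irradiated thymus and 1.34, 1.37 and 1.84 FPKM in controls (1.22 ± 0.30, adjusted p = 0.0106), a call lost under quantile normalization (0.14, adjusted p = 0.722). Noncoding transcripts held 71.4% of it in irradiated thymus and 75.7% in controls, and its remainder was not called (adjusted p = 0.0805). Eno3, the muscle enolase, had 8.42, 30.8 and 11.0 FPKM in irradiated thymus and 6.22, 6.96 and 7.00 FPKM in controls, with no overlap and no call (1.07 ± 0.44, adjusted p = 0.069), although without irradiated library 1 it was called (1.44, adjusted p = 0.0109). Library 2 was again far above the rest, as it was for the muscle, airway, fat, red blood cell, neutrophil, and neuronal and neuroendocrine markers.

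Pkm, whose products are the M1 and M2 forms of pyruvate kinase that the tables do not part, had 94.9, 235 and 271 FPKM in irradiated thymus and 94.5, 117 and 116 FPKM in controls (0.74 ± 0.39, adjusted p = 0.133). Ldha, the subunit that favours lactate formation, had 74.2, 194 and 172 FPKM in irradiated thymus and 128, 149 and 109 FPKM in controls (0.08 ± 0.37, adjusted p = 0.861), and its sign turned negative under median-ratio scaling (-0.39). Ldhb, the subunit of tissues that use lactate, had 59.4, 106 and 54.7 FPKM in irradiated thymus and 78.8, 94.9 and 95.1 FPKM in controls (-0.35 ± 0.27, adjusted p = 0.284). Ldha and Ldhb together came to 220 ± 83.5 FPKM in irradiated thymus and 219 ± 22.1 FPKM in controls (mean ± SD, n = 3 each). In Ldha and Ldhb the irradiated libraries lay on both sides of the controls, and in Pkm library 1 lay among the controls. Without irradiated library 1, Pkm (1.21, adjusted p = 0.000482) and Ldha (0.51, adjusted p = 0.0317) were called, and without irradiated library 2 Ldhb was (-0.65, adjusted p = 0.0151).

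**Figure D2:**
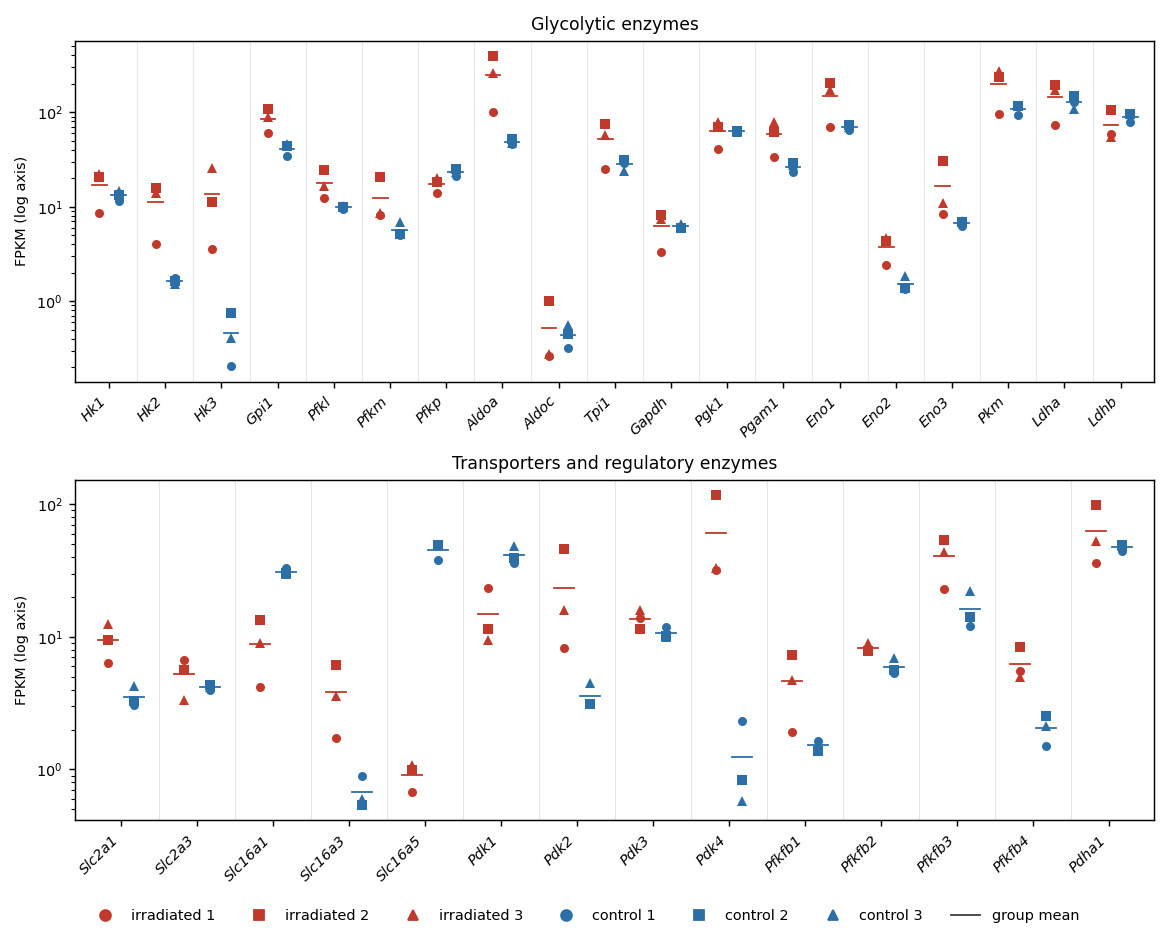
FPKM (log axis) of every gene in each library; circles, squares and triangles are replicates 1, 2 and 3, red for irradiated and blue for control thymus, and lines are group means. The irradiated libraries spread far wider than the controls in most genes, with library 1 usually lowest.

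The transporters held the largest fall. Slc16a5, a member of the monocarboxylate transporter family whose substrates in the body are poorly known, had 0.681, 0.982 and 1.07 FPKM in irradiated thymus and 38.2, 49.2 and 49.3 FPKM in controls. No irradiated library came near a control (log2 fold change -5.51 ± 0.21, adjusted p = 4.86e-05), and the irradiated mean was 0.02 of the control mean. The gene lies at chr11:115462474-115474398 on the plus strand of GRCm38. Noncoding transcripts held 91.1% of its value in irradiated thymus and 62.4% in controls, and the remainder fell to 0.0394 to 0.122 FPKM in irradiated thymus, against 12.9 to 19.8 FPKM in controls. Slc16a1, the widespread carrier that takes lactate in or out along its gradient, had 4.19, 13.5 and 8.95 FPKM in irradiated thymus and 32.9, 30.4 and 29.7 FPKM in controls (-1.94 ± 0.38, adjusted p = 0.00392). Slc16a3, the carrier typical of cells that export much lactate, went the other way, with 1.72, 6.11 and 3.60 FPKM in irradiated thymus and 0.886, 0.541 and 0.602 FPKM in controls (2.19 ± 0.46, adjusted p = 0.0054). The rise of Slc16a3 lost its call under quantile normalization (0.97, adjusted p = 0.131). Slc16a1 and Slc16a5 fell along with the cortical thymocyte and dividing cell markers, and Slc16a3 rose along with the macrophage and fibroblast markers. Among the irradiated libraries the orders matched only in part. Slc16a1 and Slc16a5 were lowest in library 1. There cortical thymocyte markers (120, 78.0 and 90.9 FPKM in libraries 1, 2 and 3) and dividing cell markers (79.8, 26.8 and 49.5 FPKM) summed highest. Slc16a3 was highest in library 2, as were fibroblast markers (704, 771 and 717 FPKM), while macrophage markers were highest in library 3 (888, 1071 and 1214 FPKM). The part of these cells in the differences was not tested.

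Slc2a1, the basal glucose carrier of most cells, had 6.38, 9.54 and 12.6 FPKM in irradiated thymus and 3.07, 3.30 and 4.23 FPKM in controls, with no overlap (1.36 ± 0.27, adjusted p = 0.00412). Slc2a3, the high-affinity glucose carrier of neurons and lymphocytes, had 6.65, 5.63 and 3.34 FPKM in irradiated thymus and 4.00, 4.35 and 4.16 FPKM in controls (0.26 ± 0.27, adjusted p = 0.416), and its sign turned negative under quantile normalization (-0.45) and median-ratio scaling (-0.20) and in the authors' deposited table (-0.05). Noncoding transcripts held 42.4% of Slc2a3 in irradiated thymus and 64.1% in controls, and its remainder was above the controls without overlap but not called (0.85 ± 0.37, adjusted p = 0.0839). Without irradiated library 3 the gene value of Slc2a3 was called higher (0.54, adjusted p = 0.0424). The summed level of the monocarboxylate carriers Slc16a1, Slc16a3 and Slc16a5 was 13.6 ± 7.00 FPKM in irradiated thymus and 77.3 ± 4.55 FPKM in controls (SD, n = 3 each), while the 2 glucose carriers summed to 14.7 ± 1.51 FPKM in irradiated thymus and 7.70 ± 0.660 FPKM in controls. Neither sum overlapped between the groups (exact two-sided permutation test, p = 0.1 each, the smallest that 3 against 3 libraries can give).

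The promoters of Slc16a1 and Slc16a3 are shown because the genes moved in opposite directions and both windows hold the core letters bound by hypoxia-inducible factor (HIF), a regulator of many glycolytic genes. Each is the RefSeq window (GRCm38.p6) of 250 bases before to 50 after the first-listed start, 5′ to 3′ on the gene's strand, with ACGTG or GCGTG on either strand and the E-box CACGTG in capitals. Slc16a1 is at chr3:104638414-104638713 (plus strand) and Slc16a3 at chr11:120948817-120949116 (plus strand).
Slc16a1: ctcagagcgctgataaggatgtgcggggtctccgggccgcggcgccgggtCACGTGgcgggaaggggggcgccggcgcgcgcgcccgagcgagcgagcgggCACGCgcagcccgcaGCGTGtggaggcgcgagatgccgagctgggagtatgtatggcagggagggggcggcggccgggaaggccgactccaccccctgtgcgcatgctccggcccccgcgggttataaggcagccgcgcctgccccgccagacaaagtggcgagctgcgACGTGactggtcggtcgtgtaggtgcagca
Slc16a3: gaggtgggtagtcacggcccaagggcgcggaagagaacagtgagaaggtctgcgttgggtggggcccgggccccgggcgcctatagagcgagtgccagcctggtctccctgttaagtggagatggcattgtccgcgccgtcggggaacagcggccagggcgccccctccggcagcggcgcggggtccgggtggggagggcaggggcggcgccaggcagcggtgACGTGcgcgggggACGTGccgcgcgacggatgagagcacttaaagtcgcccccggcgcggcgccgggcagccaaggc
Slc16a1 had 5 HIF core matches, 2 of them inside its single E-box, and Slc16a3 had 2 HIF core matches and no E-box. Both windows are rich in G and C, 73.7% in Slc16a1 and 73.3% in Slc16a3. The matched letters describe the windows and do not say whether a factor binds there.

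The fate of pyruvate showed the clearest exchange between paralogues. Pyruvate dehydrogenase kinases phosphorylate and switch off pyruvate dehydrogenase, which keeps pyruvate out of the mitochondrial oxidation route. Pdk1, the kinase known as a HIF target, had 23.5, 11.6 and 9.49 FPKM in irradiated thymus and 36.4, 39.1 and 48.6 FPKM in controls (-1.57 ± 0.33, adjusted p = 0.00507). Noncoding transcripts held 33.4% of Pdk1 in irradiated thymus and 54.7% in controls, and its remainder fell less (-0.98 ± 0.29, adjusted p = 0.0251). Pdk4, a kinase induced by fasting and by glucocorticoids in muscle and fat, had 31.9, 118 and 32.9 FPKM in irradiated thymus and 2.32, 0.833 and 0.575 FPKM in controls. Every irradiated library lay far above every control, and the log2 fold change was 5.44 ± 0.64 (adjusted p = 0.000431) with library 2 and 4.82 (adjusted p = 0.000868) without it. Pdk2, the kinase of widest distribution, had 8.29, 46.0 and 15.8 FPKM in irradiated thymus and 3.12, 3.09 and 4.51 FPKM in controls (2.34 ± 0.57, adjusted p = 0.00953). Pdk3 had 13.8, 11.5 and 15.9 FPKM in irradiated thymus and 11.9, 10.1 and 10.0 FPKM in controls, which overlapped (0.35 ± 0.16, adjusted p = 0.0968) and turned negative under median-ratio scaling (-0.11), and without irradiated library 2 was called higher (0.48, adjusted p = 0.044). Fat markers summed to 140, 2625 and 1122 FPKM in irradiated libraries 1, 2 and 3, against 32.2 to 68.7 FPKM in controls. Library 2 was highest in Pdk2, in Pdk4 and in the fat markers, while Pdk4 was about as high in library 1 as in library 3, which differ in the sum of fat markers. Muscle, airway, red blood cell, neutrophil, fibroblast, endothelial, and neuronal and neuroendocrine markers were also highest in library 2. The part of fat cells or of these other cells in the rise was not tested. Pdha1, the catalytic subunit the kinases act on, had 36.1, 98.2 and 53.0 FPKM in irradiated thymus and 44.6, 49.1 and 48.4 FPKM in controls (0.28 ± 0.34, adjusted p = 0.495), and its sign turned under median-ratio scaling (-0.19).

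The promoters of Pdk1 and Pdk4 are shown for the same reason as those of the carriers, with the same letters in capitals. Pdk1 is at chr2:71872974-71873273 (plus strand) and Pdk4 at chr6:5496229-5496528 (minus strand), both on GRCm38.p6.
Pdk1: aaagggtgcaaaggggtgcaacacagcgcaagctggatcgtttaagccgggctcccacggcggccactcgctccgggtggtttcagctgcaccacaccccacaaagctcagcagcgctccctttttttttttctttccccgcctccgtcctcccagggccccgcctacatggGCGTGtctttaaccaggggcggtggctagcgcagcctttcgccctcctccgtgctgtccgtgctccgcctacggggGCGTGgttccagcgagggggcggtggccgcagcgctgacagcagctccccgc
Pdk4: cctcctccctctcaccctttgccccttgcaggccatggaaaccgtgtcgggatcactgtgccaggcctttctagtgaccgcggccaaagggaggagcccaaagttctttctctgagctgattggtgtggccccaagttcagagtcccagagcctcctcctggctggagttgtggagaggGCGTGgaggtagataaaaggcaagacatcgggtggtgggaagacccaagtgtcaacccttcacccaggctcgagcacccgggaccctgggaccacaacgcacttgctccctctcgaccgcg
Pdk1 had 2 matches to the HIF core, both written GCGTG on the gene's strand and starting 78 and 2 bases before the first-listed start, and Pdk4 had 1, starting 71 bases before it. Neither window held the E-box.

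All 4 genes of 6-phosphofructo-2-kinase were called higher, and 1 of them, Pfkfb4, without irradiated library 2, beside 42.4% and 37.9% of all genes. These enzymes make and break fructose 2,6-bisphosphate, the strongest activator of phosphofructokinase. Pfkfb3, the form with the highest kinase activity, had 23.0, 54.3 and 44.1 FPKM in irradiated thymus and 12.1, 14.2 and 22.3 FPKM in controls (1.28 ± 0.36, adjusted p = 0.0176). Pfkfb4 had 5.52, 8.41 and 4.96 FPKM in irradiated thymus and 1.51, 2.52 and 2.11 FPKM in controls (1.57 ± 0.28, adjusted p = 0.00262). Pfkfb1, best known from liver, had 1.92, 7.26 and 4.73 FPKM in irradiated thymus and 1.63, 1.38 and 1.53 FPKM in controls (1.37 ± 0.45, adjusted p = 0.0327). Pfkfb2, best known from heart, had 8.06, 7.85 and 9.03 FPKM in irradiated thymus and 5.34, 5.59 and 6.92 FPKM in controls (0.48 ± 0.16, adjusted p = 0.0342). In all 4 genes every irradiated library lay above every control, as was the case for 46.1% of all genes tested. The calls were less firm than the lack of overlap: Pfkfb4 was called in 14 of the 15 fits, Pfkfb3 in 11, and Pfkfb1 and Pfkfb2 in 8 each. Leaving out irradiated library 2 or 3 or control library 1 or 2 took the adjusted p of Pfkfb1, Pfkfb2 and Pfkfb3 above the threshold (0.0513 to 0.117), as did control library 3 for Pfkfb1 (0.0831). Noncoding transcripts held 72.9% of Pfkfb3 in irradiated thymus and 69.6% in controls, and its remainder, at 6.88, 4.75 and 21.2 FPKM in irradiated thymus and 3.94, 2.13 and 8.73 FPKM in controls, overlapped and was not called (1.06 ± 0.67, adjusted p = 0.206). The remainder of Pfkfb1 was not called either (adjusted p = 0.0503), while those of Pfkfb2 and Pfkfb4 were.

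Paralogue shares within a step do not depend on the scaling between libraries, since each is a percentage of the summed FPKM of its step in the same library. Of 26 shares in 9 steps, 15 did not overlap between the groups, 9 higher in irradiated thymus and 6 lower, and 16 did not overlap without irradiated library 2, a number that leaving out a library can only keep or raise. Levels, a different measure, did not overlap in 70.8% of all genes tested. The shares of a step add up to the whole, so they are not independent. Aldoa (0.69 points) and Aldoc (-0.69 points) mirror each other and both count among the 15, although Aldoc was near the floor. With 3 against 3 libraries the exact two-sided permutation test gave p = 0.1 for each of these 15, the smallest it can give, and 0.173 after Benjamini-Hochberg adjustment over the 26 shares, so no share could pass 0.05. Hk1 made up 44.0% ± 8.64 of hexokinase in irradiated thymus and 86.2% ± 1.93 in controls (SD, n = 3 each, here and below). Hk2 made up 26.9% ± 5.49 in irradiated thymus and 10.9% ± 1.98 in controls, and Hk3 29.1% ± 10.7 in irradiated thymus and 2.92% ± 1.72 in controls. Hk1 was the most abundant hexokinase gene in irradiated libraries 1 and 2 and in all 3 controls, and Hk3 in irradiated library 3.

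Among the pyruvate dehydrogenase kinases, Pdk4 held 49.5% ± 11.8 in irradiated thymus and 2.26% ± 1.81 in controls. Pdk1 held 16.4% ± 12.5 in irradiated thymus and 72.5% ± 4.37 in controls. The most abundant kinase gene was Pdk4 in all 3 irradiated libraries and Pdk1 in all 3 controls. Once noncoding transcripts were taken off, Pdk1 held 11.7% in irradiated thymus and 57.2% in controls. Pdk4 then held 52.4% in irradiated thymus and 3.19% in controls. In monocarboxylate transport, Slc16a5 held 7.66% ± 2.79 in irradiated thymus and 58.8% ± 4.96 in controls, and Slc16a3 held 27.4% ± 1.99 in irradiated thymus and 0.887% ± 0.300 in controls. Slc16a1 held 64.9% ± 1.19 in irradiated thymus and 40.3% ± 4.66 in controls, a larger share of a smaller sum, since its own level fell. With noncoding transcripts taken off, Slc16a5 held 0.735% in irradiated thymus and 35.1% in controls, Slc16a1 75.4% in irradiated thymus and 63.9% in controls, and Slc16a3 23.8% in irradiated thymus and 1.01% in controls. Slc16a1 was then the most abundant carrier gene in all 6 libraries, whereas in whole-gene values Slc16a5 was the most abundant in all 3 controls.

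Pfkp held 37.7% ± 8.22 of phosphofructokinase in irradiated thymus and 59.9% ± 2.30 in controls, but 18.7% in irradiated thymus and 29.8% in controls once noncoding transcripts were taken off. Without noncoding transcripts 13 of the 26 shares did not overlap. The shares of the enolases, of Ldha and Ldhb, of Slc2a1 and Slc2a3 and of Pfkfb1, Pfkfb3 and Pfkfb4 overlapped between the groups. Ldha, for example, held 65.3% ± 10.2 of lactate dehydrogenase in irradiated thymus and 58.9% ± 4.66 in controls.

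**Figure D3:**
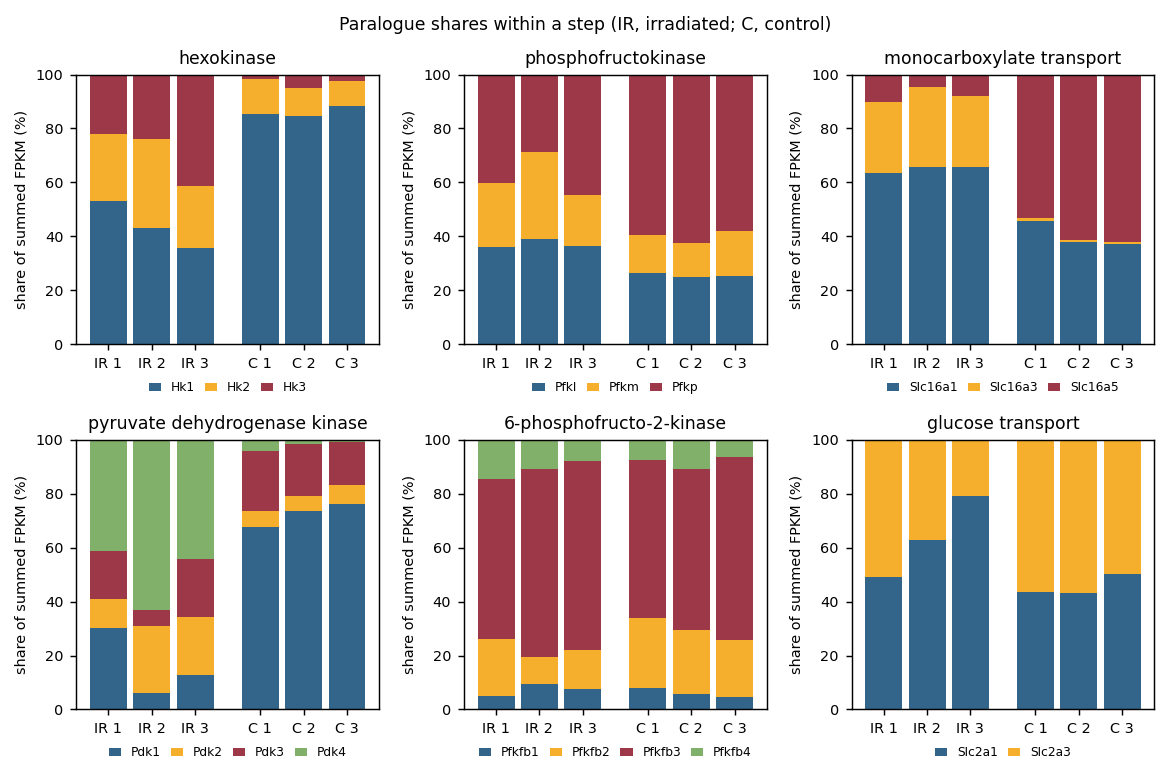
Share of each paralogue in the summed FPKM of its step (y axis, percent), 1 bar per library, with irradiated libraries 1 to 3 (IR) left of control libraries 1 to 3 (C). Pdk4 is the largest segment of the kinases in all 3 irradiated libraries and Pdk1 in all 3 controls, and Slc16a5 is the smallest segment of the carriers in all 3 irradiated libraries and, in these whole-gene values, the largest in all 3 controls.

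The genes varied together among the irradiated libraries. Irradiated library 1 was the lowest of its group in 26 of the 32 genes, and library 2 the highest in 19, whereas library 1 was lowest in 44.9% and library 2 highest in 31.5% of all genes tested. The median log2 difference from the control mean over the 32 genes was 0.35 in library 1, 1.35 in library 2 and 0.90 in library 3, and over all genes tested it was 0.26 in library 1 and 0.45 in both others. Summed over the 32 genes, the level was 795, 1996 and 1587 FPKM in irradiated libraries 1, 2 and 3, against 824, 938 and 904 FPKM in control libraries 1, 2 and 3. Thus the sum in irradiated library 1 was below all 3 controls, and the sums in libraries 2 and 3 were above them. The ratio of the highest to the lowest library had a median of 2.50 in irradiated thymus and 1.26 in controls. Red blood cell markers followed the same order, at 1.18, 7364 and 1197 FPKM in irradiated libraries 1, 2 and 3, against 51.3 to 139 FPKM in controls, and so did those of muscle, fat and neutrophils. Neutrophil markers summed to 40.7, 382 and 156 FPKM in irradiated libraries 1, 2 and 3 and to 43.3 to 112 FPKM in controls. Fibroblast markers (704, 771 and 717 FPKM in irradiated libraries 1, 2 and 3) also had the same order. So did endothelial markers (50.5, 125 and 118 FPKM) and neuronal and neuroendocrine markers (6.57, 26.8 and 7.49 FPKM). Markers of cortical thymocytes, mature T cells, dividing cells, macrophages, thymic epithelium and airway had other orders. The part of any of these cells and tissues in the glycolysis values was not tested.

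**Figure D4:**
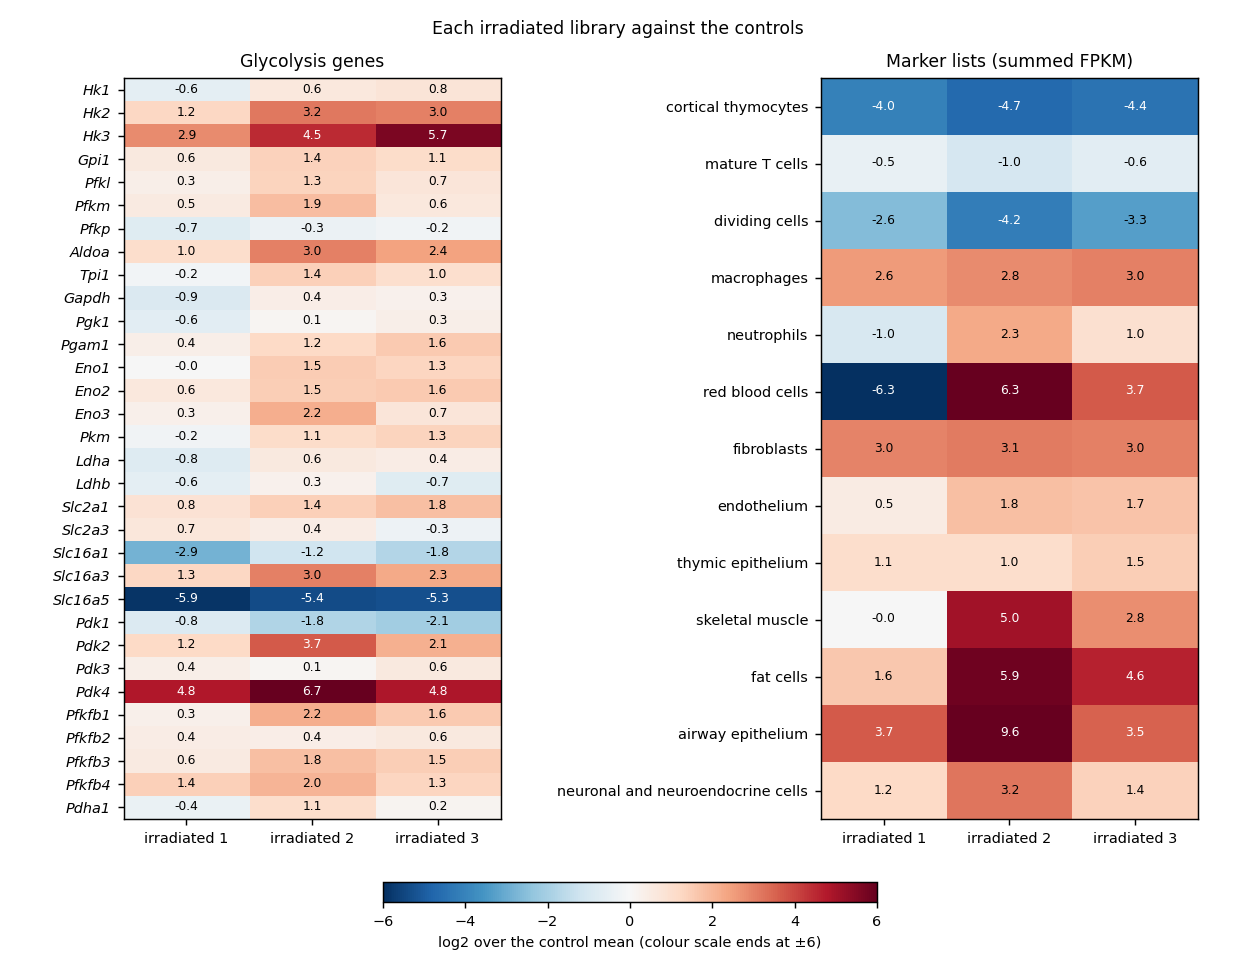
Log2 difference of each irradiated library from the control mean, for the 32 tested genes (left, FPKM + 0.1 against the mean of log2 control values) and for the summed FPKM of each marker list (right, against the mean control sum); red is higher, blue is lower and the colour scale ends at 6. Library 1 is palest for most genes, while Slc16a5 and the cortical thymocytes are deep blue and Hk3 and Pdk4 deep red in all 3 libraries.

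Related genes outside the 33 moved in part with them. Their counts stand beside 42.4% higher and 20.9% lower of all genes tested, and beside 37.9% and 17.7% without irradiated library 2. Of 14 other tested sugar and glycolytic enzymes, 8 were higher and 2 lower, and without irradiated library 2 7 were higher and 2 lower. Pgm1, which links glycogen to glucose 6-phosphate, was higher (2.44 ± 0.25), as was Galm, a galactose mutarotase (1.46 ± 0.22), while Galk1, galactokinase, was lower (-1.65 ± 0.17). Of 6 other tested hexose carriers 4 were higher and 0 lower, with or without irradiated library 2, led by the insulin-responsive carrier Slc2a4, with 14.2, 33.5 and 17.4 FPKM in irradiated thymus and 1.68, 1.24 and 1.17 FPKM in controls (3.81 ± 0.33), then Slc2a12 (2.58) and Slc2a13 (2.49). Of 9 other tested members of the Slc16 family and their chaperones, 5 were higher and 1 lower, and without irradiated library 2 4 were higher and 2 lower. Slc16a9 (2.59) and the pyruvate and lactate carrier Slc16a7 (2.02) were among the higher ones. Bsg, the chaperone that brings Slc16a1 and Slc16a3 to the membrane, had 51.6, 196 and 109 FPKM in irradiated thymus and 55.8, 49.3 and 52.5 FPKM in controls and was not called (0.97 ± 0.44, adjusted p = 0.0874), and the chaperone Emb was lower (-0.98 ± 0.20, adjusted p = 0.00476).

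Of 10 tested genes for the entry of pyruvate into mitochondria and for pyruvate dehydrogenase, 1 was higher and 0 were lower, with or without irradiated library 2. The higher one was Pcx, pyruvate carboxylase, with 7.67, 117 and 27.8 FPKM in irradiated thymus and 3.12, 2.54 and 3.05 FPKM in controls (3.30 ± 0.86, adjusted p = 0.0129). Its order over the irradiated libraries was that of the fat markers. The muscle, red blood cell, neutrophil, fibroblast, endothelial, and neuronal and neuroendocrine markers equally had this order. The pyruvate carrier subunits Mpc1 (-0.24 ± 0.29) and Mpc2 (0.45 ± 0.23) and the pyruvate dehydrogenase subunit Dlat (0.62 ± 0.31) and its phosphatase regulator Pdpr (0.37 ± 0.19) were not called. All 4 tested genes of gluconeogenesis were higher, with or without that library, among them G6pc3 (2.22 ± 0.21), the widespread glucose 6-phosphatase, Pck2 (1.86 ± 0.19), the mitochondrial carboxykinase, and Fbp2 (3.03 ± 0.50), the muscle fructose bisphosphatase. The pentose phosphate route had 2 of 8 genes higher, G6pdx (1.60 ± 0.37) and Pgd (1.24 ± 0.35), its oxidative dehydrogenases, and 2 lower, Rpe (-0.55 ± 0.12), an epimerase, and Rpia (-0.43 ± 0.15). In the glycerol phosphate shuttle 2 of 3 were higher, Gpd1 (3.65 ± 1.28) and Gpd1l (0.46 ± 0.16), while Gpd2 was not called (0.87 ± 0.46). Without irradiated library 2 the pentose phosphate route had 1 gene higher and 1 lower, with Pgd (adjusted p = 0.0528) and Rpia (adjusted p = 0.067) no longer called, and the shuttle had 0 called, with adjusted p of 0.097 for Gpd1 and 0.114 for Gpd1l.

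Of 17 tested hypoxia-responsive genes outside glycolysis, 8 were higher and 3 lower, with or without irradiated library 2, shares of either sign near those of all genes. Bhlhe40 (3.49 ± 0.36), Adm (2.38 ± 0.24) and Bnip3 (2.18 ± 0.21) were the higher ones with the smallest adjusted p. Of 15 regulators of glycolytic genes 8 were higher and 2 lower, not far from the shares of all genes, and 5 were higher and 1 lower without irradiated library 2, when Myc (adjusted p = 0.0733) and Txnip (adjusted p = 0.0678) were no longer called. Hif1a, the oxygen-regulated HIF subunit, had 45.8, 45.6 and 89.6 FPKM in irradiated thymus and 39.1, 38.0 and 35.9 FPKM in controls and was not called (0.60 ± 0.27, adjusted p = 0.0879). Epas1, the HIF subunit typical of endothelium and fat, was higher (3.68 ± 0.66, adjusted p = 0.00257). Mlxipl, the sugar-sensing factor of liver and fat, was higher (4.27 ± 0.52) and so was Foxo1 (0.76 ± 0.14), a factor active when insulin signalling is low. Myc, which drives glycolytic genes in dividing cells, was lower, with 6.03, 6.58 and 8.16 FPKM in irradiated thymus and 10.9, 9.76 and 9.05 FPKM in controls (-0.52 ± 0.17, adjusted p = 0.0299). Txnip, which curbs glucose uptake, was higher, with 456, 332 and 148 FPKM in irradiated thymus and 103, 117 and 128 FPKM in controls (1.29 ± 0.40, adjusted p = 0.0256).

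Letters of the HIF core were common in the promoters of these genes, whichever way they moved. RefSeq windows were found for 31 of the 33 symbols, all but Slc2a3 and Slc16a5. ACGTG or GCGTG on either strand stood in 24 of the 31 (77.4%), against 43.8% of 27025 promoters of the same length. The match was present in 12 of 16 genes called higher, in both lower genes with a window and in 9 of 12 genes not called. The E-box CACGTG, which overlaps ACGTG on both strands, stood in 5 of 31 (16.1%), against 7.24% of all promoters. Both motifs contain CG, so they are more frequent in windows rich in CG.

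The lncRNA table gave a second reading of the same genes, since the gene values include the transcripts it lists. It held 107 such transcripts of 29 of the genes, 63 retained introns and 44 processed transcripts by their GENCODE M21 type, of which 8 were at 0 in every library. Summed per gene, 25 genes were tested, and 6 were higher, 6 lower and 13 not called, beside 15.8% higher and 30.1% lower among the 9421 genes tested in that table. The 12 calls became 9 without irradiated library 2 (4 higher, 5 lower), beside 13.5% higher and 21.9% lower of the 9421 genes, shares near those of the 25. They became 5 without irradiated library 3, 6 without control library 1, 2 or 3, and 9 under median-ratio scaling. For these other fits the counts over all genes are not given here. The median log2 fold change of the 25 was -0.29, against -0.44 over all genes tested there. The 6 higher were Hk3, Aldoa, Eno2, Pdk4, Pfkfb3 and Pfkfb4, all of them also higher as genes. The 6 lower were Slc16a5 and Pdk1, lower as genes, and Pfkp, Pgk1, Ldha and Pdha1, which were not called as genes. For Ldha the noncoding sum was 4.17, 4.36 and 3.31 FPKM in irradiated thymus and 7.83, 11.8 and 5.66 FPKM in controls (-1.02 ± 0.30, adjusted p = 0.0228), beside gene values that overlapped. This call was lost under median-ratio scaling (-0.70, adjusted p = 0.109) and without irradiated library 3 (adjusted p = 0.0728) or control library 1 (0.0631) or 2 (0.0911). Median-ratio scaling also ended the calls of the noncoding sums of Pfkp and Pdha1. For Pdk1 it was 9.89, 1.67 and 3.35 FPKM in irradiated thymus and 18.9, 22.5 and 26.4 FPKM in controls (-2.52 ± 0.54, adjusted p = 0.00709). The noncoding log2 fold change was below that of the gene in 24 of the 25. Noncoding transcripts made up a median of 13.1% of the gene value in irradiated thymus and 17.2% in controls over 28 genes, and the percentage was lower in irradiated thymus for 24 of them. The tables were fitted separately and noncoding transcripts are part of the gene value, so the difference between the fold changes was not tested.

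**Figure D5:**
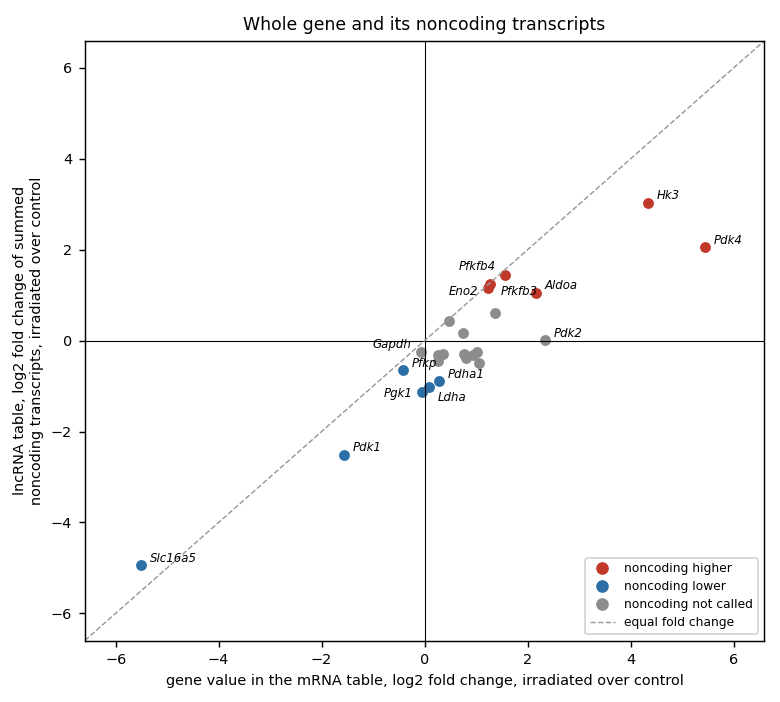
Log2 fold change (irradiated over control) of the summed noncoding transcripts in the lncRNA table (y axis) against that of the whole gene in the mRNA table (x axis) for 25 genes; colour gives the call of the noncoding sum, and the dashed line marks equal fold changes. Of the 25 points 24 lie below the line, and Slc16a5 at the lower left is the exception.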

How the data were processed

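Polyadenylated RNA of whole thymus was sequenced in 3 irradiated and 3 control libraries, grouped by their labels. The authors deposited FPKM values per library, for genes and for noncoding transcripts, with other columns that hold their log2 fold changes and adjusted p-values, which per the submitters' processing notes come from DESeq2 1.10.1. Which aligner, counter, strand setting and annotation they used is not given in the sources used here. Start and end match GENCODE M21 (GRCm38) for 99.81% of the transcripts found in both. Lines that repeat a gene were collapsed, 27 gene names turned into dates were restored, and 62 lncRNA lines with no values were dropped.

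Genes averaging at least 0.5 FPKM were tested with limma 3.58.1 (R 4.3.3) on log2(FPKM + 0.1) with an abundance trend, Benjamini-Hochberg adjustment over each whole table and a threshold of 0.05, and fold changes are on that scale, which understates low genes. The fit was tested on simulated data. Paralogue shares used exact two-sided permutation tests (scipy 1.17.1). Library depth is an estimate from the commonest step of FPKM times length, and 1 fragment in 1 kb is worth 0.0391 to 0.0456 FPKM.

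All 33 genes are named. From related lists, counts, the 3 genes with the smallest adjusted p and Bsg, Mpc1, Mpc2, Hif1a, Myc and Txnip are named, and others (Eno1b, Emb, Epas1, Rpia, Gpd2, Vegfa, Pgam2, Ldhd and Pck1) were chosen after their values were seen. Some related genes are not reported here. Genes and lists were chosen with earlier results of these data known. Alternatives covered scaling, filter, pseudocount, replicate block, leaving out each library and the authors' table. Taking off noncoding transcripts, and counts of related lists and steps without irradiated library 2, were added after the values were seen.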

Additional observations from a re-analysis of the deposited data

How the results depend on the processing

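The 10 genes named in the report as stable kept their call in all 15 limma fits, but the number called higher, 16, was 10 under quantile normalization and lay between 10 and 22 when 1 library was left out, lowest without control library 1 and highest without irradiated library 1. The number called lower, 3, was 5 under median-ratio scaling and 3 to 4 when 1 library was left out. Of all 14001 genes, 4822 to 6771 were called higher and 2151 to 3461 lower when 1 library was left out. The 12 calls among noncoding sums were 5 to 11 when 1 library was left out. The 15 paralogue shares that did not overlap were 15 to 20 when 1 library was left out, which can only keep or raise this number and so is no check of it. Signs turned in genes that were not called. Under median-ratio scaling Hk1 was -0.20, Ldha -0.39, Pdha1 -0.19, Pdk3 -0.11 and Slc2a3 -0.20 on the log2 scale. Ldha was -0.018 under equal-sum scaling and Slc2a3 was -0.45 under quantile normalization and -0.045 in the authors' deposited table. When 1 library was left out, Ldha ranged from -0.18 to 0.51, Gapdh from -0.30 to 0.32, Pgk1 from -0.25 to 0.24 and Pdha1 from -0.11 to 0.61. In the remainder after noncoding transcripts were taken off, Pfkp was 0.23. The cause of these changes was not tested. Same-numbered libraries did not deviate together (r of 0.06, -0.04 and 0.05 for numbers 1, 2 and 3 over 14001 genes), so no pairing by number was seen. Deviations among 3 libraries in each group cannot exclude a pairing. With the replicate block 16 genes were higher and 3 lower, beside 5693 higher and 2662 lower of all 14001 genes. Under pairing by number 20 shares had the same sign in all 3 numbers, and with the block 11 noncoding sums were called. Values of the order of 0.5 FPKM rest on few fragments.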

Other observations

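Some related genes outside the 33 genes were higher in irradiated thymus. They were chosen after their values were seen. Pgam2, the muscle phosphoglycerate mutase, had 1.76, 17.4 and 7.65 FPKM in irradiated libraries 1, 2 and 3, against 0.318, 0.404 and 0.543 FPKM in control libraries 1, 2 and 3 (log2 fold change 3.62 ± 0.75, adjusted p = 0.00489). Its order over the irradiated libraries was that of the summed muscle markers, at 6.39, 215 and 45.5 FPKM. The sums of fat, red blood cell, neutrophil, fibroblast, endothelial, and neuronal and neuroendocrine markers had the same order. The order therefore does not tell these cells and tissues apart, and their part was not tested. Ldhd, which oxidizes D-lactate in mitochondria, had 2.63, 11.4 and 5.56 FPKM in irradiated thymus and 1.02, 0.765 and 1.32 FPKM in controls (2.34 ± 0.51, adjusted p = 0.00595). Pck1, the cytosolic carboxykinase of liver and fat, had 17.9, 287 and 84.4 FPKM in irradiated thymus and 8.36, 2.24 and 1.73 FPKM in controls (4.52 ± 1.01, adjusted p = 0.00684). The order of Pck1 was likewise that of the fat, muscle, red blood cell, neutrophil, fibroblast, endothelial, and neuronal and neuroendocrine markers.

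Vegfa, a hypoxia-responsive growth factor for blood vessels, had 5.87, 16.4 and 15.2 FPKM in irradiated thymus and 2.88, 1.90 and 1.75 FPKM in controls (2.37 ± 0.41, adjusted p = 0.00232). Gapdh stood out among the glycolytic enzymes by its low listed level. Its noncoding transcripts summed to 3.07, 6.21 and 7.23 FPKM in irradiated thymus and to 5.88, 5.99 and 6.54 FPKM in controls, which in control library 3 is the whole gene value.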
